A study of Rattus norvegicus with 44 samples.

Results

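Mitochondria make only a few of their own proteins. The others are made in the cytoplasm and enter through the translocase of the outer membrane (TOM complex, genes named Tomm) and the translocases of the inner membrane (TIM complexes, genes named Timm). The few proteins encoded by mitochondrial DNA are made on a separate mitochondrial ribosome, whose proteins are themselves nuclear gene products (Mrpl for most of the large subunit, Mrps for most of the small subunit). Oocytes are known for their large stock of mitochondria, which the egg passes to the embryo.

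The genes described here were every gene whose symbol begins with Tomm, Timm, Mrpl or Mrps followed by a digit, pseudogenes excepted. This gave 87 of the 14324 genes that had a probe set of their own on the Rat Gene 1.0 ST array: 8 Tomm, 12 Timm, 41 Mrpl and 26 Mrps genes. Where a gene had several probe sets, the brightest one over the 38 arrays was used. Mrpl20 shared its probe set with another gene and was left out.

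The expression of these genes was measured in whole ovaries of 4-day-old female Sprague-Dawley rats, an age at which the ovary holds mostly primordial follicles. The ovaries were kept in culture for 48 h, either untreated or with 50 ng/ml of a single growth factor, and each sample pooled 2 to 3 ovaries. The treated groups were AMH (anti-Müllerian hormone), BMP4, FGF2 (basic fibroblast growth factor), FGF7 (keratinocyte growth factor), GDNF, KITLG (kit ligand), LIF and PDGFab, with 3 arrays each, against 14 untreated control arrays. CTGF, with 3 arrays, was run apart against 3 untreated controls of its own, and its values were set against those controls alone. All 3 arrays labelled GDNF were used. The text of the study describes fewer replicates for GDNF than for the other growth factors, and the labels do not say which array this concerns. The labels do not tie a control to the culture day of a treated sample either, so each of the 8 growth factors was compared with the same 14 controls and the 8 comparisons are not independent of each other. Adjusted p values are from limma with Benjamini-Hochberg adjustment over 27342 probe sets, and a gene was called changed when this value was under 0.05. They set a difference between group means against the spread between these pooled samples within groups. Culture day was not part of the fit.

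The markers of an early ovary were present in the 14 controls. Zp3, a protein of the oocyte's coat, had a mean log2 level of 11.22 ± 0.31, Gdf9, an oocyte growth factor, 9.85 ± 0.68, Wt1 of the somatic cells 10.16 ± 0.29 and the stromal collagen Col1a1 11.70 ± 0.25 (SD, n = 14). In whole ovaries a smaller number of cells of a type and less RNA in each cell cannot be told apart. The correlation between arrays over all probe sets was 0.9635 to 0.997 in the set of 38 arrays.

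The promoters of Tomm20, Mrps30 and Mrpl52, which were called, and of Mrpl36, which had the largest difference with GDNF without a call, are shown here because nuclear genes for mitochondrial proteins are known for short, shared promoter motifs. The sequences are from RefSeq (GRCr8) and run from 250 bases before to 50 bases after the start of the gene, 5′ to 3′ on the gene's strand. The capitals mark 3 motifs searched on both strands. The first is that of nuclear respiratory factor 1 (NRF1, searched by 7 letters of it as GCGCANG or CNTGCGC), a factor known to act on many nuclear genes for mitochondrial proteins. The others are that of the ETS family, which includes nuclear respiratory factor 2 (CCGGAAG or CTTCCGG), and that of YY1 (AAGATGG or CCATCTT). Tomm20 was at chr19:71832371-71832670 on the minus strand, Mrps30 at chr2:52195855-52196154 on the minus strand, Mrpl52 at chr15:31852686-31852985 on the plus strand and Mrpl36 at chr1:31795072-31795371 on the minus strand.
Tomm20: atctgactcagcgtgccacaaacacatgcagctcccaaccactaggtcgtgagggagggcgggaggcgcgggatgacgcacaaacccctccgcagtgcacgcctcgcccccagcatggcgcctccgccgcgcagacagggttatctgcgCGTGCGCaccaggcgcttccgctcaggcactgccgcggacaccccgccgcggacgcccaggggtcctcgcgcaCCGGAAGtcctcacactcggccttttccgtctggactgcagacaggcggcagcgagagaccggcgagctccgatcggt
Mrps30: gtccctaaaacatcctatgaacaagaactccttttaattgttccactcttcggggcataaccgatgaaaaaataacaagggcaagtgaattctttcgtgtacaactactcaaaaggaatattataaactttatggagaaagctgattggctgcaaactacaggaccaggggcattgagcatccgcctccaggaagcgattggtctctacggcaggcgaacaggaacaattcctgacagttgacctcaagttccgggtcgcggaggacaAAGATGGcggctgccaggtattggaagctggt
Mrpl52: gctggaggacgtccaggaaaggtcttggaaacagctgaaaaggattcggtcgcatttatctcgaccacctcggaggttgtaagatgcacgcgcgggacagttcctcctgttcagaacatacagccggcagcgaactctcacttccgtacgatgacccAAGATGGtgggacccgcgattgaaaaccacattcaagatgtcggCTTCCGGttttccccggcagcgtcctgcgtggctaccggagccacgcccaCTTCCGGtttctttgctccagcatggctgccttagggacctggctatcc
Mrpl36: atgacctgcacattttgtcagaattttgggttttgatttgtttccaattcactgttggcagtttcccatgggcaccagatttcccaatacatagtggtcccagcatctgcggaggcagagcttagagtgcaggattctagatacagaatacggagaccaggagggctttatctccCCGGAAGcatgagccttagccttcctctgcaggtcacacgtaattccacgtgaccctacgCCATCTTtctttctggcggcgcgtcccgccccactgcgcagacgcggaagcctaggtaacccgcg
Tomm20 had 1 NRF1 and 1 ETS match, Mrps30 1 YY1 match, Mrpl52 2 ETS matches and 1 YY1 match, and Mrpl36 1 ETS and 1 YY1 match. Of the 73 members with a promoter in the RefSeq table, Mrps12 not among them, 26 (35.6%) held the ETS motif, against 9.22% of all 27457 promoters. The YY1 motif was found in 17 (23.3%), against 7.3% of all promoters, and the NRF1 letters in 24 (32.9%), against 16.6% of all promoters. No motif overlapped another in the 4 promoters shown. A match of letters does not show that a factor binds there, and no binding was measured in these ovaries.

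Of the 87 genes, 4 were called changed with at least 1 growth factor, in 8 gene and growth factor pairs, and 7 of the 8 were lower than in controls. Over all probe sets 0.0439% to 1.89% were called in each of the 5 comparisons with a called member. Called probe sets were also mostly lower with BMP4 (63 of 75), FGF7 (20 of 22) and KITLG (10 of 12). They were mostly higher with FGF2 (0.753% of all probe sets higher, 0.187% lower) and with GDNF (88 of 517 lower). Tomm20 was lower with BMP4, FGF2, FGF7 and KITLG. Mrps30 was lower with FGF2 and KITLG, Mrpl52 was lower with GDNF, and Mrps12 was higher with FGF2. No member was called with AMH, LIF, PDGFab or CTGF. These calls rest on the spread shared by the 9 groups of 38 arrays. When each growth factor was fitted with the controls alone, none of the 8 held (adjusted p = 0.0678 to 0.361).

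**Figure D1:**
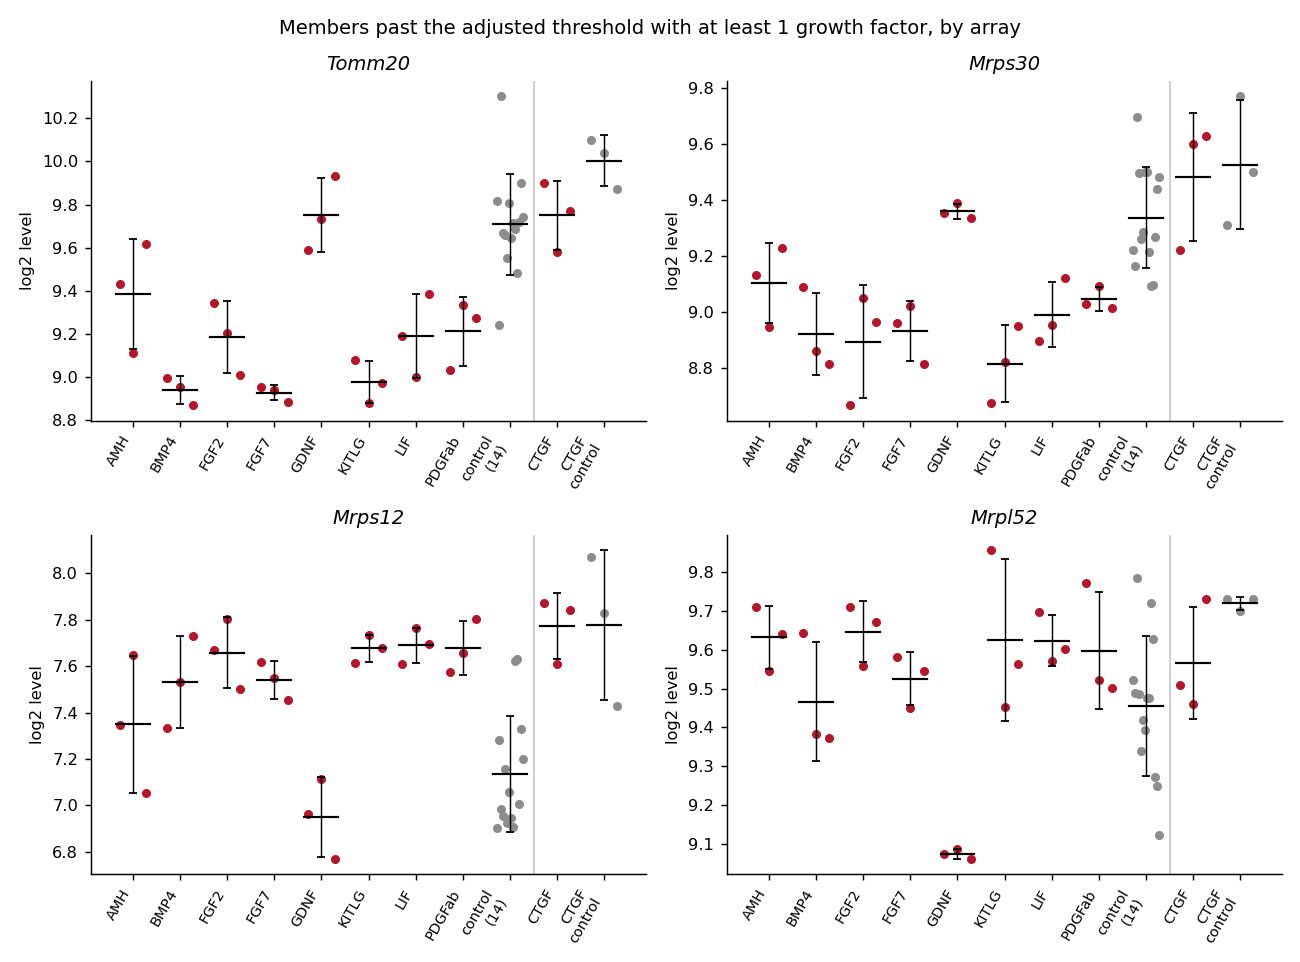
Log2 level (vertical axis) of Tomm20, Mrps30, Mrps12 and Mrpl52 on each array, with the 8 growth factors first, then their 14 controls, then CTGF and its 3 controls. Points are single arrays and bars are the mean ± SD. The FGF7 arrays lay between 8.89 and 8.95 for Tomm20, below every control array (9.24 to 10.30), and the GDNF arrays lay between 9.06 and 9.09 for Mrpl52, below every control array (9.12 to 9.78).

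Tomm20, the receptor of the TOM complex for proteins with an N-terminal targeting sequence, was the member with the most calls. Its log2 level with FGF7 was 8.95, 8.94 and 8.89. With BMP4 it was 9.00, 8.96 and 8.87. The 14 controls were 9.24 at the lowest, 9.70 at the median and 10.30 at the highest. These 6 arrays all lay below the lowest control, and the 3 arrays of each growth factor were close to each other. The mean was 8.93 ± 0.04 with FGF7, against 9.71 ± 0.23 in controls (SD, n = 3 and 14), a log2 difference of -0.78 (SE 0.12), or 58.2% of the control level (limma adjusted p = 0.00299; 22 probe sets, or 0.0805% of all, were called with FGF7, 0.0731% of all as lower). BMP4 gave a mean of 8.94 ± 0.06, a log2 difference of -0.77 (SE 0.12, limma adjusted p = 0.00675; 0.274% of all probe sets were called, 0.23% as lower). In the exact two-sided permutation test of the difference over the 680 splits both gave p = 0.00147, the smallest that 3 against 14 arrays can give. The BMP4 call was lost without BMP4 replicate 2 (limma adjusted p = 0.117) or 3 (0.0867), and the FGF7 call without FGF7 replicate 1 (0.052) or 3 (0.119).

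KITLG gave Tomm20 levels of 9.08, 8.88 and 8.98, again below every control. The mean of 8.98 ± 0.10 was 0.73 lower than in controls on the log2 scale (SE 0.12, limma adjusted p = 0.03, exact permutation p = 0.00147). With KITLG 12 probe sets were called, or 0.0439% of all (0.0366% as lower), and 2 of them were members. FGF2 gave 9.34, 9.21 and 9.01, of which 1 array lay inside the range of the controls. The mean of 9.19 ± 0.17 corresponded to a log2 difference of -0.52 (SE 0.12, limma adjusted p = 0.0273, exact permutation p = 0.00294; 0.94% of all probe sets were called with FGF2, 0.187% as lower). The KITLG and FGF2 calls each depended on every treated array: with 1 of the 3 left out, the limma adjusted p was 0.136 to 0.204 with KITLG and 0.0612 to 0.186 with FGF2.

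The other growth factors of the set, GDNF excepted, gave Tomm20 values on the same side of the controls that did not pass the test. LIF gave 9.19, 9.00 and 9.38, a log2 difference of -0.52 (SE 0.12, limma adjusted p = 0.0585). PDGFab gave 9.03, 9.33 and 9.27, a difference of -0.50 (SE 0.12, adjusted p = 0.0671). AMH gave 9.43, 9.11 and 9.62, a difference of -0.32 (SE 0.12, adjusted p = 0.946). All 21 arrays of the 7 growth factors other than GDNF lay below the control mean for Tomm20, and 15 of them lay below the lowest control. The 7 comparisons share the 14 controls, so these are not separate pieces of evidence. GDNF stood apart, with 9.59, 9.73 and 9.93, a log2 difference of 0.04 (SE 0.12, adjusted p = 0.893). In the CTGF set the levels were 9.90, 9.58 and 9.77 with CTGF, against 10.10, 10.04 and 9.87 in its controls, a difference of -0.25 (SE 0.11, adjusted p = 0.9999, exact permutation p = 0.2, where the smallest possible is 0.1).

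Markers of other cell types moved in some of the 4 comparisons with a Tomm20 call. The median log2 difference of the 7 oocyte markers measured (Gdf9, Bmp15, Zp1, Zp3, Ddx4, Dppa3 and Kit) was 0.39 with FGF7, 0.15 with BMP4, -0.32 with FGF2 and -0.15 with KITLG, and none of the 7 was called with any of these. Dppa3 was lower at an unadjusted p under 0.05 in all 4 comparisons, with a log2 difference of -0.46 with FGF7, -0.44 with BMP4, -0.52 with FGF2 and -0.74 with KITLG (limma adjusted p = 0.173 to 0.606), where it was 0.36 with GDNF. All 7 were negative with FGF2, 5 with KITLG, 3 with BMP4 and 2 with FGF7. The median of 5 pregranulosa markers was 0.02, 0.07, -0.11 and 0.21 in the same order of growth factors. With KITLG all 4 mast cell markers were higher at an unadjusted p under 0.05 (median 1.02, from 0.61 to 1.66), without a call. The 4 markers of the surface epithelium were all below the control mean with BMP4 (median -0.31) and with FGF7 (median -0.17), 1 of them at an unadjusted p under 0.05 in each. The part of these cells in the Tomm20 values was not tested.

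The other core subunits of the import channels were measured for 7 of 8 genes, and none other than Tomm20 was called in any of the 9 comparisons. Tomm22, the central receptor that holds the TOM complex together, had log2 differences over the 8 growth factors from -0.18 with GDNF to 0.22 with PDGFab (SE 0.12), against a control mean of 9.85 ± 0.23. Tomm40, the channel itself, differed by -0.09 to 0.19 (SE 0.12). Tomm70, the receptor for carrier proteins of the inner membrane, was below its control mean of 9.74 ± 0.18 with all 8 growth factors, by 0.06 with LIF to 0.25 with BMP4 (SE 0.09, adjusted p = 0.203 to 0.946). Timm44, which ties the import motor to the inner channel, differed by -0.18 to -0.02 (SE 0.13). Timm17a, a subunit of the TIM23 channel, differed most with FGF7, at 8.69 ± 0.09 against 8.98 ± 0.20 (difference -0.29, SE 0.12, adjusted p = 0.548). This held for its brightest probe set only. A dimmer probe set of Timm17a differed by -0.14 with FGF7 and most with LIF (-0.27), without a call.

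Mrps30 was the second gene called with more than 1 growth factor. Despite its name its protein sits in the large subunit of the mammalian mitochondrial ribosome. With KITLG its log2 levels were 8.67, 8.82 and 8.95 and with FGF2 they were 8.67, 9.05 and 8.96. The 14 controls ran from 9.09 over a median of 9.28 to 9.70, so that neither group overlapped the controls. The mean was 8.82 ± 0.14 with KITLG, against 9.34 ± 0.18 in controls (SD, n = 3 and 14), a difference of -0.52 (SE 0.10, limma adjusted p = 0.0346). FGF2 gave a mean of 8.89 ± 0.20 and a difference of -0.44 (SE 0.10, adjusted p = 0.0189). Both had the smallest exact permutation p, 0.00147. Only 0.347% of all probe sets lay below every control on all 3 KITLG arrays, and 0.212% did so with FGF2. The KITLG call was lost without any 1 of its arrays (adjusted p = 0.136 to 0.315) and without control 4 (0.0521) or control 7 (0.0555), and the FGF2 call was lost without FGF2 replicate 1 (0.316).

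BMP4 and FGF7 also put Mrps30 below every control without a call. Over all probe sets 0.625% were below every control with BMP4, where the members were Mrps30 and Tomm20. The levels were 9.09, 8.86 and 8.82 with BMP4 (difference -0.42, SE 0.10, limma adjusted p = 0.0568) and 8.96, 9.02 and 8.81 with FGF7 (difference -0.41, SE 0.10, adjusted p = 0.103). LIF, PDGFab and AMH gave differences of -0.35, -0.29 and -0.23 (adjusted p = 0.183, 0.227 and 0.959). As for Tomm20, all 21 arrays of the 7 growth factors other than GDNF were below the control mean, 17 of them below the lowest control, and the GDNF arrays at 9.35, 9.39 and 9.34 were on it (difference 0.02, SE 0.10). With CTGF Mrps30 was 9.22, 9.60 and 9.63, against 9.31, 9.77 and 9.50 in the CTGF controls (difference -0.04, SE 0.16).

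Mrps31, a protein of the small ribosomal subunit, had a similar arrangement of arrays but no call. It lay below every control on the 3 arrays of KITLG (8.01, 7.96 and 8.12), of FGF7 (8.04, 8.04 and 8.09) and of LIF (8.06, 8.05 and 8.13), where the controls ran from 8.17 to 8.86. It was the only member to do so with LIF, where 0.19% of all probe sets did. The log2 differences were -0.43, -0.41 and -0.38 (SE 0.12, limma adjusted p = 0.152, 0.182 and 0.227). With GDNF the arrays read 8.53, 8.69 and 8.61, above the control mean of 8.47 ± 0.21 (difference 0.14, adjusted p = 0.564). Over all 38 arrays the level of Mrps31 correlated with that of Tomm20 at r = 0.82 and that of Mrps30 with Tomm20 at r = 0.85. Within the 14 controls alone these were r = 0.71 and r = 0.68. These correlations describe arrays that share a preprocessing.

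**Figure D2:**
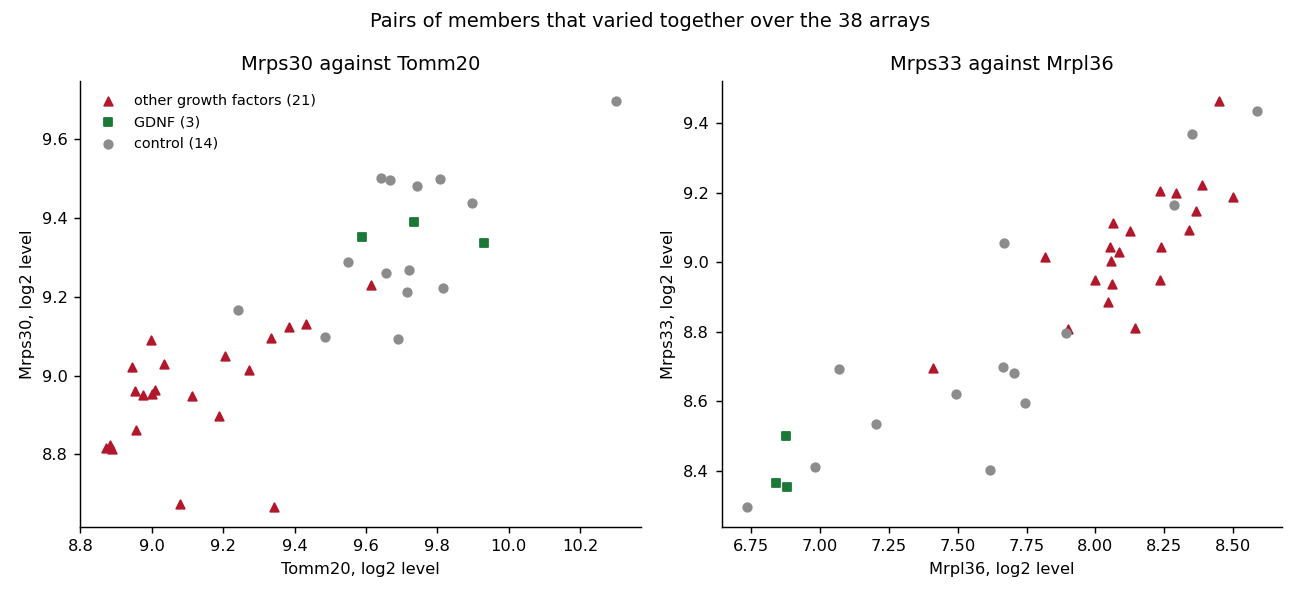
Left, log2 level of Mrps30 (vertical axis) against that of Tomm20 (horizontal axis), and right, Mrps33 against Mrpl36, on the 38 arrays, each point 1 array: triangles are the 21 arrays of the other growth factors, squares GDNF and circles the 14 controls. The correlation over 38 arrays was 0.85 on the left and 0.90 on the right, and both were seen among the 14 control arrays alone (0.68 and 0.87).

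Mrps12, the homologue of the bacterial S12 protein near the decoding centre of the small subunit, was the only member called higher. With FGF2 its log2 levels were 7.67, 7.80 and 7.50, where the 14 controls were 6.90 at the lowest, 7.03 at the median and 7.63 at the highest. The upper end of the control range was made by controls 10 and 11 (7.62 and 7.63), and 2 of the 3 FGF2 arrays lay above it. The mean of 7.66 ± 0.15 stood against 7.14 ± 0.25 in controls, a difference of 0.52 (SE 0.13, limma adjusted p = 0.0375, exact permutation p = 0.00588), or 144% of the control level (0.753% of all probe sets were called higher with FGF2). The call was lost without any 1 of the FGF2 arrays (adjusted p = 0.0558 to 0.226) and without control 3, 4, 7 or 8 (0.053 to 0.0547).

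LIF, PDGFab and KITLG gave Mrps12 differences at least as large as FGF2 that did not pass the test. The LIF arrays read 7.61, 7.76 and 7.69 (difference 0.55, SE 0.13, limma adjusted p = 0.0503). The PDGFab arrays read 7.58, 7.66 and 7.81 (0.54, adjusted p = 0.0532) and the KITLG arrays 7.62, 7.73 and 7.68 (0.54, adjusted p = 0.12). The adjusted p of a gene also depends on how many other probe sets differ in the same comparison, and 12 were called with KITLG, against 257 with FGF2. Of the 21 arrays of the 7 growth factors other than GDNF, 20 lay above the control mean of Mrps12. GDNF lay below it, at 6.96, 7.11 and 6.77 (difference -0.19, SE 0.13, adjusted p = 0.478), and the CTGF arrays read 7.87, 7.61 and 7.84, against 8.07, 7.83 and 7.43 in the CTGF controls (difference -0.0033, SE 0.17, adjusted p = 1).

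GDNF was the growth factor with the most calls over the whole array, 517 probe sets or 1.89% of all, of which 429 were higher, and a single member was among them, on the lower side (0.322% of all probe sets). Mrpl52, a protein of the large subunit, had log2 levels of 9.07, 9.09 and 9.06 with GDNF, where the controls ran from 9.12 over a median of 9.48 to 9.78. The 3 GDNF arrays were nearly equal and lay just under the lowest control, control 14. The mean was 9.07 ± 0.01, against 9.46 ± 0.18 in controls, a difference of -0.38 (SE 0.10, limma adjusted p = 0.0315, exact permutation p = 0.00294). With any 1 GDNF array left out the adjusted p was 0.109 to 0.164. None of the other 7 growth factors gave a called difference for Mrpl52, with values between 0.01 and 0.19 above the control mean.

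Across the whole family GDNF gave mostly lower values. Of the 87 members, 68 had a negative log2 difference with GDNF and the median was -0.13, against a median of 0.04 over all probe sets and -0.04 over the probe sets brighter than the median. The medians of the Tomm, Timm, Mrpl and Mrps genes were -0.17, -0.09, -0.12 and -0.16. At an unadjusted p under 0.05, 16 members were lower and none was higher with GDNF, against 5.69% of all probe sets lower and 11.4% higher. Of the members 84 were brighter than the median probe set, and the probe sets brighter than the median leaned to the same side as the members: 8011 of 13671 (58.6%) were negative with GDNF, and 1373 were lower and 389 higher at an unadjusted p under 0.05. The members whose groups did not overlap were Mrpl52, Mrps17 and Timm23 (3 of 87, against 0.326% of all probe sets below every control). Of the 13671 brighter probe sets, 80 lay below every control.

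**Figure D3:**
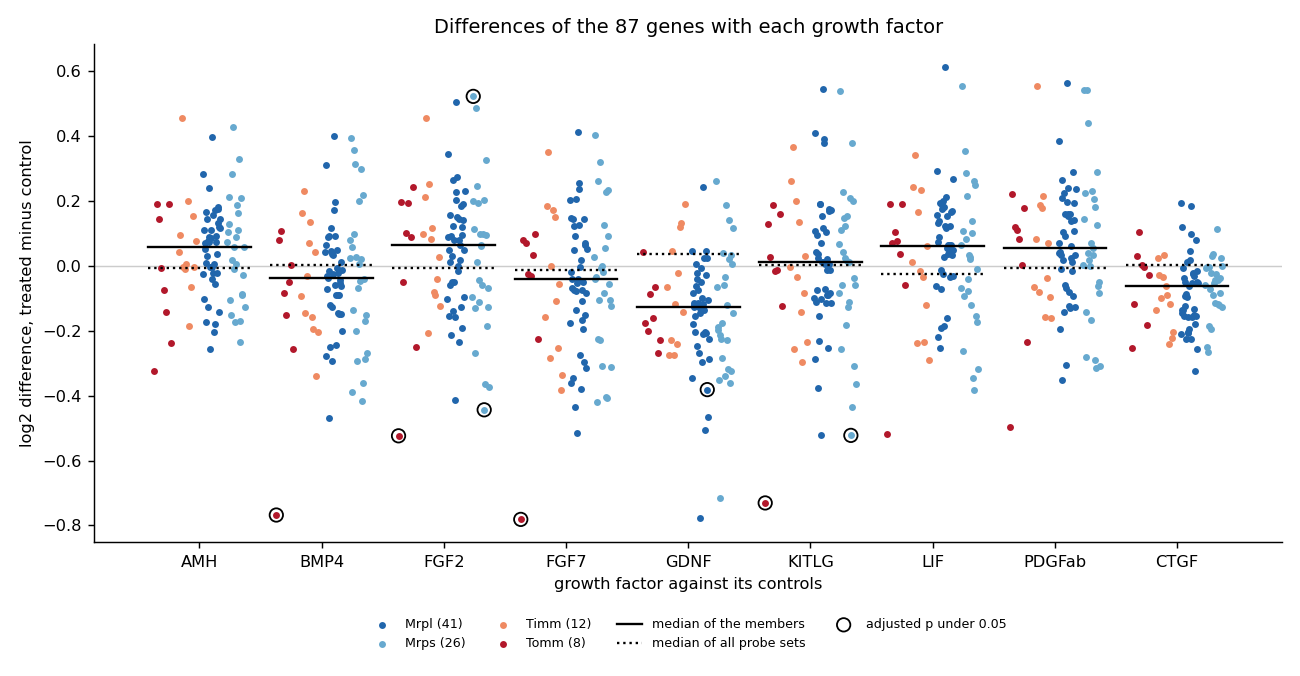
Log2 difference between treated and control arrays (vertical axis) for each of the 87 genes in the 9 comparisons, grouped as Tomm, Timm, Mrpl and Mrps. Circles mark an adjusted p under 0.05, the solid line is the median of the members and the dotted line that of all probe sets. The members' median was lowest with GDNF, at -0.13, against 0.04 over all probe sets and -0.04 over the probe sets brighter than the median.

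The largest differences with GDNF were in 2 ribosomal genes that also varied most among the controls. Mrpl36, the homologue of bacterial L36 in the large subunit, was 6.88, 6.84 and 6.88 with GDNF. Its controls ran from 6.73 over a median of 7.66 to 8.59, with control 12 (6.73) below the GDNF arrays and controls 9, 13 and 14 (6.98, 7.20 and 7.07) not far above them. The difference of -0.78 (SE 0.24) did not pass the test (limma adjusted p = 0.0896, exact permutation p = 0.0309). Mrps17, a small subunit protein, was 8.04, 7.81 and 8.10 with GDNF, against 8.11 to 9.88 in controls (difference -0.72, SE 0.26, adjusted p = 0.151). Its 3 highest controls were numbers 2, 10 and 11, at 9.88, 9.68 and 9.53, and the lowest was control 13.

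Timm23, the pore of the inner membrane channel, was 10.27, 10.31 and 10.32 with GDNF, where the controls ran from 10.38 to 10.76. The difference was small, -0.24 (SE 0.08, limma adjusted p = 0.0987, exact permutation p = 0.00294), but no GDNF array overlapped the controls. All 3 probe sets of Timm23 were on this side, with differences of -0.24, -0.26 and -0.33, and none was called. The members with the largest positive differences were Mrps10 (0.26, SE 0.18, adjusted p = 0.487) and Mrpl42 (0.24, SE 0.15, adjusted p = 0.433), proteins of the small and of the large subunit. A dimmer probe set of Mrpl42 differed by 0.08 with GDNF, also without a call.

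**Figure D4:**
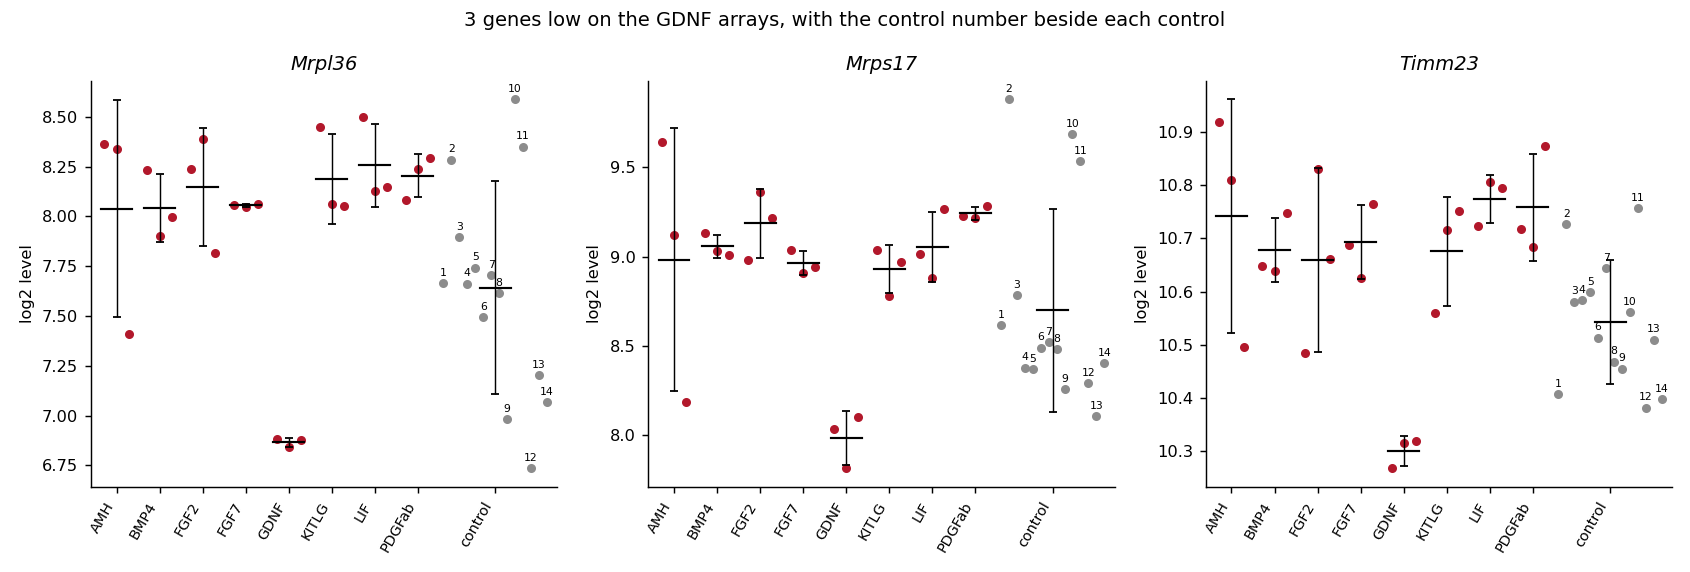
Log2 level (vertical axis) of Mrpl36, Mrps17 and Timm23 on the arrays of the 8 growth factors and their 14 controls, which carry their numbers, with bars for the mean ± SD. The GDNF arrays of Mrps17 (7.81 to 8.10) and Timm23 (10.27 to 10.32) lay below every control, while control 12 (6.73) lay below the GDNF arrays for Mrpl36.

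The count of members called with GDNF turned on single controls. Without control 12 it was 7, which added Mrpl36, Mrpl47, Mrps15, Mrps24, Mrps35 and Timm23 to Mrpl52, all lower, which was 8.05% of the members where 8.46% of all probe sets were called. Controls 12 to 14 were also left out, because earlier results of these data had placed them near the GDNF arrays. The count was then 11 (12.6% of the members, against 11.5% of all probe sets). Leaving out controls picked for lying near the GDNF arrays tends by itself to widen the difference, so this count is no added support. With any 1 of the GDNF arrays left out the count was 0. Against the mean of the controls, the GDNF arrays had a median over the members of -0.17, -0.15 and -0.05, with 72, 68 and 55 of the 87 below it. Control 12 itself had a median of -0.20, with 73 members below the mean, and control 9 a median of -0.27, with 76 below, so that both lay under all 3 GDNF arrays. Control 3 was at the other end, with 79 members above the mean and a median of 0.18.

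**Figure D5:**
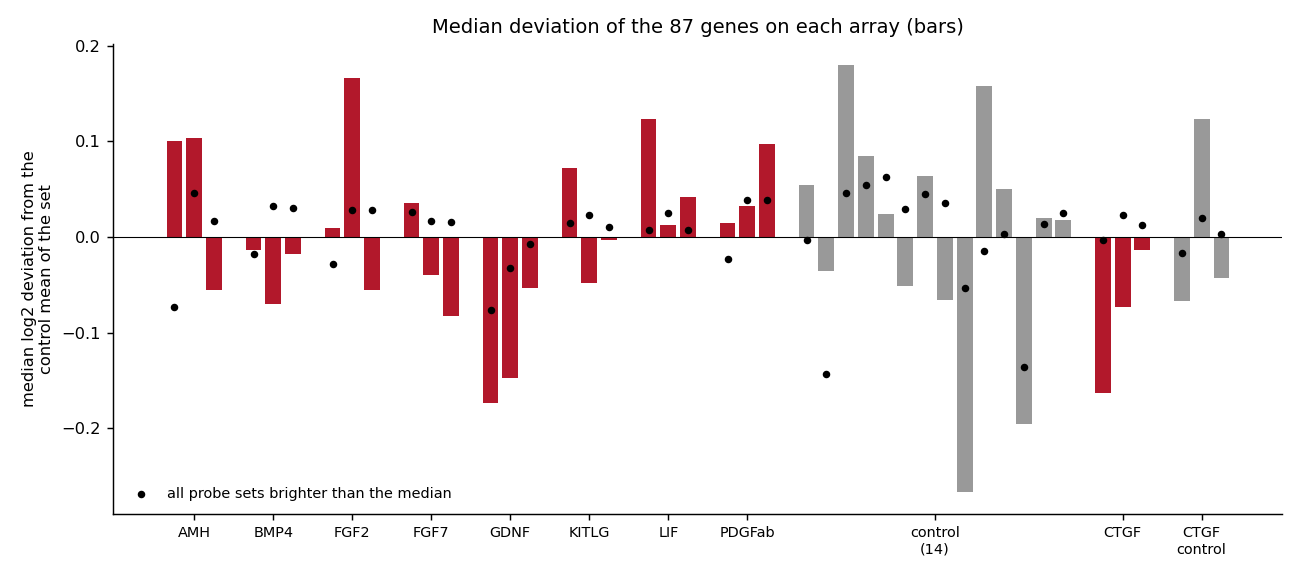
Median over the 87 members of the deviation from the control mean on the log2 scale (bars, vertical axis) on each array, and the same over the probe sets brighter than the median (dots). The GDNF arrays had medians of -0.17, -0.15 and -0.05, and controls 9 and 12 of -0.27 and -0.20.

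Direct differences between growth factors were tested in all 28 pairs of the 8, each adjusted over all probe sets. Members were called in the 7 pairs that include GDNF and in none of the other 21, where 0.0% to 0.187% of all probe sets were called (0.0549% between BMP4 and FGF2, for example). The number was 2 against AMH (0.753% of all probe sets called), 4 against BMP4 (2.4%), 10 against FGF2 (3.13%), 3 against FGF7 (1.55%), 10 against KITLG (2.5%), 7 against LIF (3.79%) and 10 against PDGFab (2.53%). These were between 2.3% of the 87 members against AMH and 11.5% against FGF2, KITLG and PDGFab. The 7 pairs share the same 3 GDNF arrays.

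Tomm20 was higher with GDNF than with 5 other growth factors. The log2 difference, GDNF minus the other, was 0.81 against BMP4, 0.57 against FGF2, 0.82 against FGF7, 0.77 against KITLG and 0.56 against LIF (SE 0.16, limma adjusted p = 0.0103 to 0.0402). Mrps30 was higher with GDNF than with FGF2 and KITLG (0.47 and 0.54, SE 0.13) and Mrps31 higher than with KITLG and LIF (0.58 and 0.53, SE 0.15). Timm23 was lower with GDNF than with each of the 7 (-0.48 to -0.36, SE 0.10, adjusted p = 0.0109 to 0.0421). Mrpl36 was lower than with 6 of them, by the largest amounts of any member (-1.39 to -1.18, SE 0.31). Mrpl52 was lower in 5 pairs (-0.57 to -0.52), Mrps12 in 4 (-0.74 to -0.71) and Timm17b, the other form of the Timm17 subunit, in 4 (-0.53 to -0.44). Mrpl10, Mrpl4, Mrps17, Mrps24, Timm13 and Mrps18b were each lower in 1 or 2 pairs. These counts needed all 3 GDNF arrays. With any 1 of them left out between 0 and 4 members were called in a pair, and the calls that held each time were those of Tomm20 against BMP4, FGF7 and KITLG and of Mrpl52 against FGF2.

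With FGF7, BMP4 and KITLG more members than the Tomm20 call itself stood apart from the controls. With FGF7 5 of the 87 lay below every control (0.6% of all probe sets did), namely Tomm20, Mrps30, Mrps31, Mrps15 and Mrpl32, and 15 were lower and 4 higher at an unadjusted p under 0.05 (3.97% and 3.6% of all probe sets). Mrpl32, a large subunit protein, was 7.43, 7.35 and 7.59 with FGF7 and 7.44, 7.59 and 7.33 with KITLG, where the controls ran from 7.61 to 8.48. Both differences were -0.52 (SE 0.14, limma adjusted p = 0.14 and 0.141). Mrps15, the homologue of bacterial S15, was 8.85, 8.86 and 8.71 with FGF7, against 8.86 to 9.59 in controls (difference -0.42, SE 0.11, adjusted p = 0.149). With BMP4 11 members were lower and 3 higher at an unadjusted p under 0.05 (4.51% and 4.45% of all probe sets), and Mrpl18, of the large subunit, had a difference of -0.47 (SE 0.16, adjusted p = 0.258). With KITLG 12 were lower and 7 higher (4.31% and 4.35%), and Mrpl38, of the large subunit, was above every control at 8.38, 8.37 and 8.43, against 7.50 to 8.31 (difference 0.39, SE 0.14, adjusted p = 0.354; 0.307% of all probe sets did so). With FGF2 the counts were 7 lower and 7 higher (4.82% and 7.35%).

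AMH, LIF and PDGFab had no called member. With AMH no probe set at all was called (0.0%), and 4 members were higher and 3 lower at an unadjusted p under 0.05 (2.88% and 2.19% of all probe sets). The largest AMH differences were those of Timm13, a small chaperone of the space between the membranes, at 7.69, 7.94 and 7.33, against 6.61 to 7.64 in controls (0.45, SE 0.14, adjusted p = 0.775), and of Mrps18b (0.43, SE 0.13, adjusted p = 0.773). With PDGFab 64 probe sets were called (0.234%). Timm13 lay above every control there, at 7.68, 7.70 and 7.88 (difference 0.56, SE 0.14, adjusted p = 0.0792, exact permutation p = 0.00294), as did Mrpl19 (0.27, SE 0.10, adjusted p = 0.317), where 0.618% of all probe sets did so. At an unadjusted p under 0.05, 11 members were higher and 8 lower with PDGFab (6.22% and 3.57%). With LIF 73 probe sets were called (0.267%) and 7 members were higher and 6 lower at that level (4.27% and 2.98%). Timm23 differed by 0.23 with LIF (SE 0.08, adjusted p = 0.342) and Mrpl36 by 0.61 (SE 0.24, adjusted p = 0.498). Among the probe sets brighter than the median, 3.0% were higher and 2.37% lower with AMH at an unadjusted p under 0.05. These shares were 9.13% and 4.7% with PDGFab and 6.69% and 2.85% with LIF. With array weights in the fit 4 members were called with LIF (0.878% of all probe sets) and 8 with PDGFab (4.13%).

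With CTGF, again, no probe set was called (0.0%), and 1 member had an unadjusted p under 0.05 (1.33% of all probe sets were higher and 1.79% lower at that level). This was Timm8a1, a small import chaperone of the space between the membranes whose human homologue is mutated in a syndrome of deafness and dystonia. It was 8.87, 8.90 and 8.98 with CTGF, against 9.18, 9.16 and 9.13 in the CTGF controls (difference -0.24, SE 0.06, adjusted p = 0.9999, exact permutation p = 0.1, the smallest possible). Of the 87 members 69 had a negative difference with CTGF, with a median of -0.06, against 0.0034 over all probe sets. The arrays behind this median overlapped when taken without pairing. By replicate number, the median deviation from the control mean was -0.16, -0.07 and -0.01 on the CTGF arrays. It was -0.07, 0.12 and -0.04 on the control arrays. Equal numbers pair the samples of this set, and the CTGF array was the lower one in replicates 1 and 2 and the higher one in 3. The tests given for CTGF here did not use the pairing. The members below every control were Timm8a1, Tomm22, Mrpl1 and Mrpl41 (4 of 87, where 4.54% of all probe sets did so). The largest differences were 0.19 for Mrpl10, 0.18 for Mrpl4, -0.32 for Mrpl50 and -0.27 for Mrps15, none with an adjusted p under 0.05.

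The members did not move as 1 block. Over the 38 arrays the median correlation between pairs of members was 0.21, and it was 0.29 within the 14 controls, where 77.5% of pairs were positive. The first principal component held 37% of the variance of the 87 genes. Its largest positive loadings were those of Mrpl36 (0.39), Mrps17 (0.34), Mrps33 (0.23) and Mrpl10 (0.21), and its most negative were those of Tomm20 (-0.145), Mrps31 (-0.12) and Mrps30 (-0.11). Mrpl36 correlated with Mrps33 at 0.90, with Mrps17 at 0.88 and with Mrps24 and Mrpl23 at 0.83 over 38 arrays. Its correlation with Tomm20 was -0.57 over 38 arrays and -0.26 within the controls. The component was not particular to these genes, since its correlation over arrays with the first component of all probe sets was 0.70.

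Genes that work beside the members were described from 6 lists of other mitochondrial genes, of which 76 of 94 were measured. They covered import and folding factors, outer membrane proteins, translation factors, aminoacyl-tRNA synthetases, mitochondrial DNA and transcription, and regulators of mitochondrial biogenesis. Only 2 of these genes were called in any of the 9 comparisons, both lower with FGF2, where 0.187% of all probe sets were called lower. Mtif2, the initiation factor that brings the first tRNA to the mitochondrial ribosome, had a mean of 7.54 ± 0.12 with FGF2, against 8.09 ± 0.22 in controls (difference -0.55, SE 0.13, limma adjusted p = 0.0225). Mterf3, which binds mitochondrial DNA and has a part in ribosome assembly, had a mean of 8.34 ± 0.04, against 8.64 ± 0.12 in controls (difference -0.30, SE 0.07, adjusted p = 0.0276). With FGF2, 1 of 20 translation factors and 1 of 10 genes for mitochondrial DNA and transcription were thus called, and none of the 8 regulators of biogenesis was.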

How the data were processed

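RNA from cultured rat ovaries was hybridised to Rat Gene 1.0 ST arrays. The deposited values are log2 probe set levels, which the authors made in Partek by RMA, adjusted for GC content, in 2 sets preprocessed apart (38 arrays with 8 growth factors, 6 arrays with CTGF). No further normalization was done, and levels were compared only within a set. Between probe sets, levels were used to pick the brightest one per gene and to set bright probe sets apart from dim ones. Gene symbols were taken from the platform annotation: 15097 of 27342 probe sets had 1 symbol, 323 several and 11922 none, and all 87 members matched RefSeq. Each set was fitted in limma 3.58.1 (R 4.3.3) with a mean per group, and p values were adjusted by Benjamini-Hochberg over all 27342 probe sets. The code of the 38-array fit was tested on simulated data with independent noise for each probe set and array. Such data hold nothing that arrays share, so that test does not bear on the calls made here. For single genes the exact two-sided permutation test over 680 splits (3 against 14) or 20 splits (3 against 3) was added. The number of arrays limits the precision.

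The members and the lists were chosen with earlier results of these data known. Named genes were all called members, the core translocase subunits, the 2 members with the largest positive and the 2 with the largest negative difference in each comparison, and called genes of the other lists. Mrps33, Mrps24, Mrpl23, Mrpl38, Mrpl19, Mrpl1, Mrpl41, Mrpl47, Mrps35, Timm8a1 and Timm17b, outside this rule, were named after their values were seen. In the CTGF set equal replicate numbers pair the samples (correlation of deviations 0.623 to 0.842 in 3 pairs), and a fit with this block called no member either. The alternatives were array weights, a replicate block, quantile normalization, median centring, a filter on dim probe sets, a trend in the variance, fits of 1 growth factor with the controls, the methods' t-test and samples left out. The promoter sequences are from RefSeq (GRCr8), found for 73 of 87 members.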

Additional observations from a re-analysis of the deposited data

How the results depend on the processing

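None of the 37 single-gene differences that were recomputed under the alternatives changed sign. Differences near 0 outside these did: with the replicate block those of Tomm20 and Mrps30 with GDNF were -0.03 and -0.0017, and that of Mrpl52 with BMP4 was -0.13. Of the 8 called differences, all 8 kept their call with array weights, median centring and a variance trend, 7 with quantile normalization and with the dimmest probe sets left out, 6 without controls 12 to 14, 3 with the replicate number as a block, and none when a growth factor was fitted with the controls alone or by the methods' t-test after Benjamini-Hochberg. The fits with the controls alone hold fewer arrays and do not share the spread of the other groups. The cause of the lost calls was not tested.

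Fits with the controls alone called 0 members with BMP4, FGF2, FGF7, GDNF and KITLG (0.0% to 0.128% of all probe sets). The methods' t-test after Benjamini-Hochberg also called 0 with each (0.0% to 0.0585%). Array weights gave 13 with BMP4 (4.57% of all probe sets called), 14 with FGF7 (4.24%), 19 with GDNF (20.6%), 9 with KITLG (1.99%), 4 with LIF (0.878%) and 8 with PDGFab (4.13%). The replicate block used numbers that do not pair most of these samples. The correlations of deviations were -0.555 to 0.740, and 3 of 24 arrays were closest to their own number. These 3 were the first arrays of FGF2, KITLG and LIF, each closest to control 1 (0.740, 0.615 and 0.694). The labels do not say what they shared with it, and this was not tested. The block gave 15 members with GDNF (6.31% of all probe sets), 2 with FGF7 (0.958%) and 1 with FGF2 (0.457%). It gave 1 with LIF (0.146%), 1 with PDGFab (0.238%), 0 with BMP4 (0.0768%) and 0 with KITLG (0.0%). Quantile normalization gave 3 with BMP4 (0.289% of all probe sets), 0 with GDNF (0.592%) and 1 with LIF (0.322%). Median centring gave 1 with LIF (0.315%) and 1 with PDGFab (0.402%). The filter on dim probe sets gave 2 with BMP4 (0.6% of the probe sets kept) and 0 with GDNF (0.0%). It gave 1 with LIF (0.336%) and 2 with PDGFab (0.849%). Without controls 12 to 14 the count was 11 with GDNF (11.5%) and 1 with KITLG (0.0219%). With thresholds taken from the study (an unadjusted p, a ratio and a linear difference) the methods' t-test, as run here, gave 0 members with CTGF (0.384% of all probe sets). It gave 3 (AMH, 1.27%) to 14 (FGF7, 3.1%) with the others. These counts are not the study's own calls. The study listed fewer probe sets than this test with each growth factor except CTGF, where it listed more. Of the members counted here, its AMH list holds Mrps18b alone, and its FGF2 and FGF7 lists hold none. The cause of this mismatch was not tested.

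With 1 treated array left out the count was 0 to 1 with BMP4, 0 to 3 with FGF2, 0 to 1 with FGF7, and 0 with GDNF, KITLG, LIF, PDGFab, AMH and CTGF. With 1 control left out, chosen after seeing the data, it was 1 to 2 with BMP4 (0.194% to 0.571% of all probe sets). It was 2 to 3 with FGF2 (0.739% to 1.43%), 1 with FGF7 (0.0475% to 0.252%) and 1 to 7 with GDNF (1.32% to 8.46%). With KITLG it was 1 to 3 (0.00731% to 0.146%). LIF gave 0 to 2 (0.23% to 0.34%) and PDGFab 0 to 2 (0.161% to 0.527%). The higher counts came without control 2, 10 or 11 for BMP4 and PDGFab, without these, 3 or 13 for LIF, and without 9 or 12 for GDNF. With 1 GDNF array left out, also chosen after seeing the data, the pairs gave 0 against AMH, 1 against BMP4 and 1 against FGF7. They gave 1 to 3 against FGF2, 1 to 2 against KITLG, 0 to 4 against LIF and 0 to 4 against PDGFab. The shares of all probe sets called are not given for the fits without a treated array.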
